A study of Homo sapiens with 6 samples.

Results

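The genes described here are 316 ZNF-named zinc finger genes, of 553 ZNF-named rows in a count table of 53712 genes. A row was a member when its symbol was ZNF, a number and at most 1 letter, and when its mean over all 6 libraries was at least 10 CPM, a gene's count scaled to the library's total count. Another 17 ZNF rows were left out by name and 220 lay under the threshold. The members were thus chosen by name and by their measured level averaged over both groups, and not by the difference between the groups. All 316 passed the filter on low counts, but 7 members averaged under 10 CPM in SO-L1 and 7 others in ASO-L1, so these passed through the group in which they were higher. The 3 members just inside the threshold were ZNF805, ZNF461 and ZNF354B at a mean of 10.1 CPM each. ZNF641, ZNF483 and ZNF229 lay just outside it at 9.99, 9.93 and 9.85 CPM.

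RNA-seq was run on H9, an established line of human embryonic stem cells that the labels call naive, grown in PXGL medium. The ASO-L1 group received 25 nM of an antisense oligonucleotide against LINE-1, the retrotransposon family still active in the human genome, and the SO-L1 group the matching sense oligonucleotide. Both groups also had 0.7 uM trans-ISRIB, 5 uM emricasan and 10 uM of the ROCK inhibitor Y-27632 for the first 24 hours, and RNA was taken from unsorted cells after 48 hours. There were 3 libraries per group, all from 1 cell line, and the labels do not say that replicates were separate cultures, so the p-values reflect the variation among these 6 libraries and no more, and that variation may be technical. In bulk RNA, fewer cells that express a gene and less RNA per cell cannot be told apart.

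Most ZNF-named genes encode proteins with C2H2 zinc fingers, short modules that hold a zinc ion and read DNA, usually in tandem arrays. Many of them also carry a KRAB domain, which recruits the corepressor TRIM28 and through it the histone methyltransferase SETDB1, and a large share of KRAB zinc finger proteins bind transposable elements. The family grew by local gene duplication, above all on chromosome 19. Other ZNF-named proteins are activators, parts of chromatin complexes or factors of RNA metabolism, and a few hold no C2H2 finger at all.

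Library totals were 23330875 to 31164287 counts for ASO-L1 and 24027869 to 30956692 for SO-L1. ASO-L1 replicate 2 and SO-L1 replicate 2 stood apart within their groups. Counts of ASO-L1 replicates 1 and 3 differed by a chi-square of 2.05 per degree of freedom, against 18.9 and 24.5 for pairs with replicate 2, and in SO-L1 the pairs with replicate 2 gave 11.3 and 12.4 against 6.44 for replicates 1 and 3. Of 5 core pluripotency markers none was called, and their summed level was 2990 to 3440 CPM in ASO-L1 and 3431 to 3751 CPM in SO-L1. Of 8 naive markers 2 rose and 4 fell, with sums of 251 to 258 CPM in ASO-L1 and 289 to 321 CPM in SO-L1. Beside these, 18.0% of all tested genes were called higher and 15.7% lower. Markers of other cells moved with the groups as well. Of 7 trophectoderm markers 3 rose (summed 28.1 to 49.5 CPM in ASO-L1, 23.1 to 26.6 CPM in SO-L1), as did 3 of 5 primed markers (113 to 135 and 86.9 to 99.02 CPM) and 3 of 6 tested fibroblast and mesenchyme markers (651 to 752 and 543 to 606 CPM). Of 4 tested primitive endoderm markers 2 rose (7.59 to 12.2 and 7.04 to 8.13 CPM), and of 2 tested neural markers 1 rose and 1 fell (13.9 to 17.0 and 18.0 to 22.9 CPM). The primed list was written with 6 genes, of which 5 were in the count table, and THY1 stands in both the primed and the fibroblast list. No listed gene in the count table was at 0 in all libraries. The part of these cell markers in the ZNF changes was not tested.

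More ZNF genes rose than fell after ASO-L1. Of the 316 members 106 were called higher and 34 lower, and 176 were not called, by the quasi-likelihood test of edgeR, with p-values adjusted by Benjamini-Hochberg over all 16873 tested genes and a threshold of 0.05. This was 33.5% higher and 10.8% lower, beside 18.0% higher and 15.7% lower among all tested genes, and beside 22.2% and 20.5% among the 9593 tested genes that also averaged at least 10 CPM. The median log2 fold change of the members was 0.13, with quartiles of -0.10 and 0.37, and that of all tested genes was -0.01. Changes were mostly small. Called changes of at least 2-fold were found for 7 members, all of them increases, which is 2.22% beside 3.91% of all tested genes and 1.75% of those at 10 CPM or more. No member was called lower at 2-fold or more, beside 1.08% of all tested genes and 0.240% of those at 10 CPM or more.

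**Figure D1:**
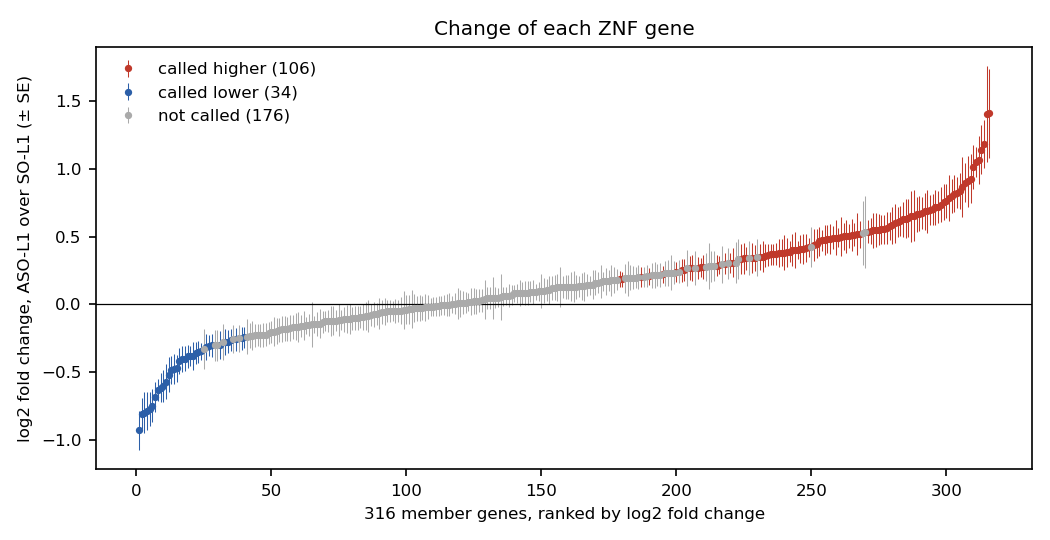
The log2 fold change of ASO-L1 over SO-L1 with its standard error (vertical axis) for each of the 316 ZNF genes, ranked from the lowest to the highest (horizontal axis) and coloured by call. The 106 genes called higher reach 1.41 and the 34 called lower reach -0.93, or -0.81 among members at 10 CPM or more in both groups.

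For 195 members no ASO-L1 library fell within the SO-L1 range. In 137 of them ASO-L1 was above SO-L1 throughout and in 58 below, beside 25.8% above and 25.1% below among all tested genes. Within replicate numbers, ASO-L1 was above SO-L1 for 223, 179 and 200 members in numbers 1, 2 and 3, and 161 members were above in all 3 and 75 below in all 3. These counts were not made over all tested genes. The median difference of the members was 0.17, 0.08 and 0.11 on the log2 scale for the 3 numbers. Over all tested genes it was -0.0008, -0.02 and -0.003. By fitted log2 fold change 199 of the 316 members were above 0, beside 8232 of all 16873 tested genes. ZNF counts together made up 1.28%, 1.32% and 1.25% of the counts of ASO-L1 libraries 1 to 3, against 1.16%, 1.28% and 1.18% of those of SO-L1. These shares overlapped, since that of SO-L1 library 2 was as high as that of ASO-L1 library 1.

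The number of calls depended on single SO-L1 libraries. Without SO-L1 replicate 1 it was 57 higher and 24 lower, and without SO-L1 replicate 3 it was 59 and 25, while the share called among all genes also dropped, to 10.1% higher and 8.51% lower and to 9.41% and 8.07%. Without replicate 1 of both groups only 26 were called higher and 8 lower, beside 4.45% and 2.5% of all genes, and without replicate 3 of both 65 and 20, beside 9.64% and 7.23%. Without the divergent replicate 2 of both groups the counts were 137 and 39, beside 21.6% and 20.1%. The calls of 52 higher and 23 lower members held without any single library, a count that was not made over all tested genes. Among the 302 members at 10 CPM or more in each group, 100 were called higher and 31 lower (33.1% and 10.3%). Among tested genes averaging at least 10 CPM these shares were 22.2% and 20.5%, and among all tested genes 18.0% and 15.7%.

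The authors' deposited table lists all 316 members. It gives 86 of them an adjusted p under 0.05 with a positive log2 fold change and 26 with a negative one, or 27.2% and 8.23%, beside 11.7% and 9.77% of all genes in the authors' deposited table. Each of these 112 was called in the same direction from the counts, which come from the same libraries.

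The increase with the smallest p was in ZNF567, a KRAB zinc finger gene on chromosome 19. It had 33.6, 40.8 and 32.5 CPM in ASO-L1 libraries 1 to 3, against 18.5, 15.6 and 17.2 CPM in SO-L1 libraries 1 to 3, in values normalised by the trimmed mean of M-values (TMM), the scale of all levels from here on. The lowest ASO-L1 library was well above the highest SO-L1 library, and the log2 fold change was 1.05 ± 0.11 (SE, adjusted p = 0.00104 by edgeR, like all adjusted p-values here). ZNF567 lies head to head with another member, ZNF461. In the RefSeq promoter table (GRCh38.p14) their windows, 250 bases before to 50 after each start on opposite strands, overlap by 196 bases. ZNF461 had 10.6, 18.3 and 10.4 CPM in ASO-L1 libraries, against 6.33, 8.17 and 7.01 CPM in SO-L1 libraries. Its lowest ASO-L1 library was above its highest SO-L1 library (0.87 ± 0.22, adjusted p = 0.0177). Leaving out SO-L1 replicate 1 (0.0718) or 3 (0.0636), or replicate 1 of both groups (0.0738), ended the call. ZNF461 was also among the members just inside the level threshold and averaged under 10 CPM in SO-L1.

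The members held 2 more head-to-head pairs. ZNF646 and ZNF668, whose windows overlap by 281 bases, changed by 0.20 (adjusted p = 0.101) and 0.36 (0.00876). ZNF398 and ZNF425, with 183 shared bases, changed by 0.00 (0.9997) and 0.31 (0.140), so in neither pair were both genes called.

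The promoters below are shown for the increase with the smallest p, an increase with a cyclic AMP response element (CRE) word, an activator gene that rose, and the decrease with the smallest p. They are RefSeq sequences of GRCh38.p14, written 5′ to 3′ on the gene's strand, and capitals mark words that a search found.
ZNF567 promoter, chr19:36666684-36666983, plus strand, with an ETS-type word: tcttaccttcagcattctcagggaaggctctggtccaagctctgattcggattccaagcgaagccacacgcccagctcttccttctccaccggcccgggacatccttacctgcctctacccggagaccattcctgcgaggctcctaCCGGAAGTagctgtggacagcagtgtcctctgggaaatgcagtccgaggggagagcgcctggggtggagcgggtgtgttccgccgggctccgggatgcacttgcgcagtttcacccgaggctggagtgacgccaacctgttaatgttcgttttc
ZNF266 promoter, chr19:9435524-9435823, minus strand, with a CRE word: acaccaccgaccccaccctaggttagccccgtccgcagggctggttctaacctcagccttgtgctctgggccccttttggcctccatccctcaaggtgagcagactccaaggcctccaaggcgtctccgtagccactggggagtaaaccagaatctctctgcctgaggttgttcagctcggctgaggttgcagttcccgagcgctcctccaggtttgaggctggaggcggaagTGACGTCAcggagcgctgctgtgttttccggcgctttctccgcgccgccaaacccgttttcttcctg
ZNF143 promoter, chr11:9460762-9461061, plus strand, with a CRE word and GC boxes: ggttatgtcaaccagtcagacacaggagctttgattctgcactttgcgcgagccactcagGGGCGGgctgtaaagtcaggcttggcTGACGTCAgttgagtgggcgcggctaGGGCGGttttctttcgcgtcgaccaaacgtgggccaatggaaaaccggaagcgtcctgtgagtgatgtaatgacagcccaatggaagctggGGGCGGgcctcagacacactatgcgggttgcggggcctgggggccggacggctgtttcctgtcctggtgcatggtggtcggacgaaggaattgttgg
ZNF486 promoter, chr19:20166964-20167263, plus strand, with a GC box: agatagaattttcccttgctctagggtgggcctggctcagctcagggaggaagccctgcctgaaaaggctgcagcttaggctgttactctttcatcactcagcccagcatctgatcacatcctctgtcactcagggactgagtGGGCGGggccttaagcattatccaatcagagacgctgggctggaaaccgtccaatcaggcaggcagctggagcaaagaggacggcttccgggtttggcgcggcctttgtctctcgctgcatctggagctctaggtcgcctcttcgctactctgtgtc

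The search covered 6 words on both strands in the promoters of 274 members and of 27305 genes in all. These 27305 were not limited by expression and include noncoding genes, while the members all averaged at least 10 CPM. The ETS-type word CCGGAAGT was in 20.1% of the members' promoters, beside 4.44% of all. It was in 22 of 90 promoters of members called higher (24.4%), 2 of 30 of members called lower (6.67%) and 31 of 154 of members not called (20.1%). The CRE word TGACGTCA was in 7 of the 90 (7.78%), 1 of the 30 (3.33%) and 3 of the 154 (1.95%), beside 1.98% of all promoters. The word ACTACAA, the core of the site of ZNF143, was in 7.30% of the members' promoters and 2.95% of all. The GC box GGGCGG was in 66.1% and 44.6%, the YY1-type word AAGATGGC in 5.11% and 3.03%, and the E-box CACGTG in 5.84% and 7.43%. A match is a description of the letters only, and these differences were not tested.

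Of the 8 increases with the smallest p, 6 encode KRAB proteins, as do 62.7% of all members. ZNF671, a KRAB gene, had 24.7, 29.4 and 24.3 CPM in ASO-L1, against 13.7, 16.6 and 13.9 CPM in SO-L1 (0.82 ± 0.11, adjusted p = 0.00173). ZNF850, whose protein holds 30 fingers, had 88.0, 93.3 and 81.6 CPM in ASO-L1, against 60.4, 64.0 and 62.2 CPM in SO-L1 (0.49 ± 0.07, 0.00194). In both genes library 2 was the highest of its group in ASO-L1 and in SO-L1. ZNF689 had 44.4, 54.6 and 40.8 CPM in ASO-L1, against 26.9, 29.7 and 29.6 CPM in SO-L1 (0.70 ± 0.11, 0.00233). ZNF266, whose promoter holds the CRE word, had 43.2, 60.5 and 44.0 CPM in ASO-L1, against 28.1, 29.8 and 26.9 CPM in SO-L1 (0.80 ± 0.13, 0.00243). ASO-L1 library 2 was again the highest in both. The remaining 3 were ZNF16 (0.84 ± 0.13, 0.00243) and ZNF200 (0.76 ± 0.12, 0.00260), neither with a KRAB domain, and ZNF569 (0.54 ± 0.09, 0.00260), a KRAB gene. ZNF569 had 39.0, 44.0 and 37.2 CPM in ASO-L1, against 28.8, 26.7 and 27.1 CPM in SO-L1. These 8 kept their calls without any single library. That the libraries did not overlap was a condition of the choice, and for ZNF200 an antisense gene overlaps its exons, with no statement in the sources used here on whether reads were counted by strand.

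**Figure D2:**
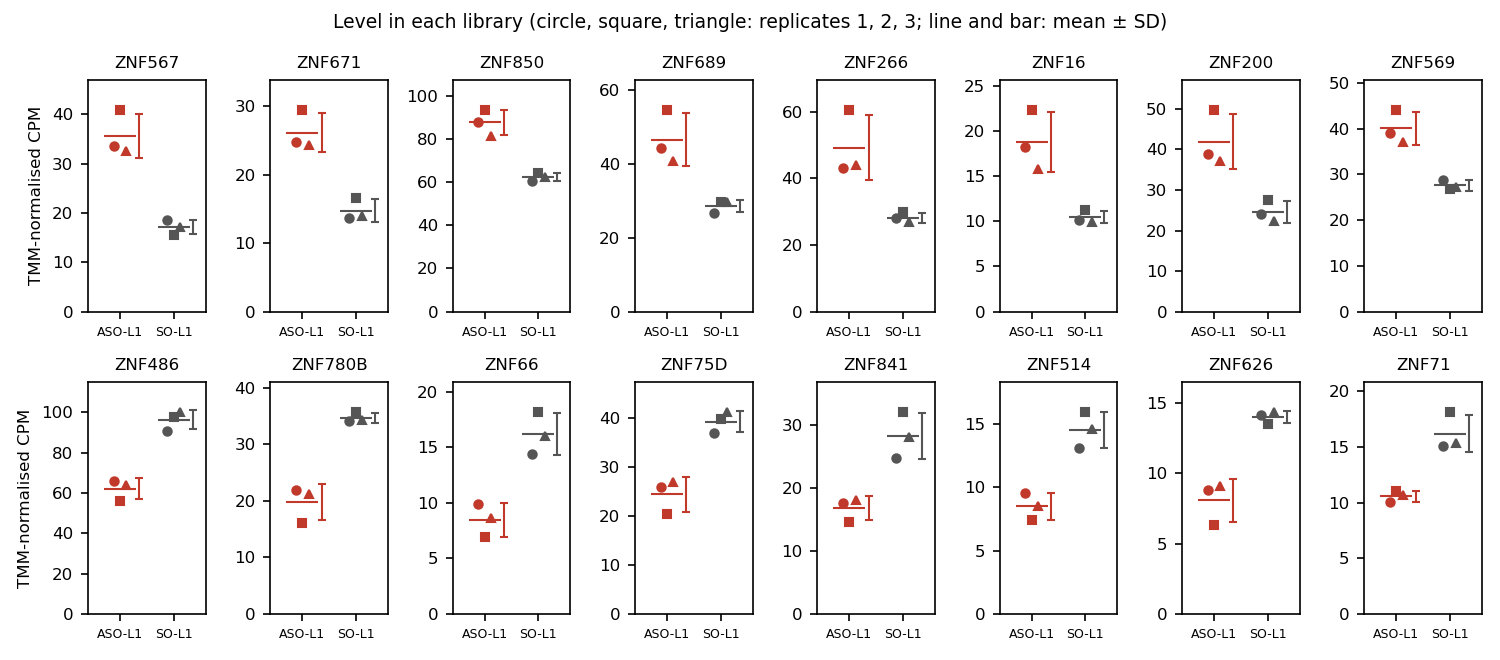
TMM-normalised CPM (vertical axis, from 0) in each ASO-L1 and SO-L1 library for the 8 increases (upper row) and the 8 decreases (lower row) with the smallest p, with mean ± SD over 3 libraries. ZNF567 lies at 32.5 to 40.8 CPM in ASO-L1 and 15.6 to 18.5 CPM in SO-L1, and ZNF486 at 56.2 to 66.2 and 90.99 to 99.98 CPM.

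The largest increases were less even across libraries. ZNF165, a gene of the cancer-testis class, had 21.8, 40.2 and 20.5 CPM in ASO-L1, against 8.73, 14.1 and 8.31 CPM in SO-L1 (1.41 ± 0.33, adjusted p = 0.0194). ZNF703, a corepressor that works with Groucho proteins, had 21.0, 42.4 and 19.6 CPM in ASO-L1, against 9.66, 13.4 and 8.31 CPM in SO-L1 (1.41 ± 0.35, 0.0266). In both, library 2 was the highest of its group in ASO-L1 and in SO-L1, and the groups did not overlap. Their calls were lost without SO-L1 replicate 3 (0.0631 for ZNF165 and 0.0817 for ZNF703), with no filter on low counts (0.110 and 0.130), and without replicate 1 (0.0530 and 0.0538) or 3 (0.0707 and 0.0711) of both groups. ZNF408, a gene of retinal vessel development, had 43.9, 69.0 and 43.7 CPM in ASO-L1, against 21.9, 25.3 and 21.8 CPM in SO-L1 (1.18 ± 0.18, 0.00295). ZNF473, also known as ZFP100, a factor of histone pre-mRNA processing with the U7 snRNP, had 39.6, 61.4 and 38.6 CPM in ASO-L1, against 18.4, 23.3 and 21.4 CPM in SO-L1 (1.14 ± 0.18, 0.00363). Both kept their calls without any single library. Exons of ZNF473 overlap the antisense gene VRK3, and those of ZNF165 another antisense gene.

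The 8 decreases with the smallest p were all in KRAB genes, which make up 62.7% of the members. Over all members, the share called lower was 10.6% with a KRAB domain and 11.4% without. ZNF486 had 66.2, 56.2 and 63.9 CPM in ASO-L1, against 90.99, 97.9 and 99.98 CPM in SO-L1 (-0.63 ± 0.08, adjusted p = 0.00143). ZNF780B had 22.0, 16.1 and 21.2 CPM in ASO-L1, against 34.1, 35.6 and 34.3 CPM in SO-L1 (-0.81 ± 0.11, 0.00183). In both, ASO-L1 library 2 was the lowest of the 6, and the groups did not overlap. ZNF66 had 9.89, 6.88 and 8.63 CPM in ASO-L1, against 14.4, 18.1 and 16.001 CPM in SO-L1 (-0.93 ± 0.14, 0.00227). ZNF75D, on the X chromosome, had 25.8, 20.4 and 27.0 CPM in ASO-L1, against 36.9, 39.8 and 41.2 CPM in SO-L1 (-0.68 ± 0.11, 0.00239). The others were ZNF841 (-0.75 ± 0.12, 0.00253), ZNF514 (-0.77 ± 0.13, 0.00266), ZNF626 (-0.79 ± 0.14, 0.00339) and ZNF71 (-0.61 ± 0.11, 0.00341), and ZNF347 (-0.80 ± 0.15, 0.00431) was added as one of the 4 largest. The value of ZNF66 was the lowest of all members, but ZNF66, ZNF514 and ZNF626 averaged under 10 CPM in ASO-L1 and passed the level threshold through SO-L1. Among members at 10 CPM or more in both groups the lowest was -0.81, in ZNF780B. No single library ended the call of any of these 9. Without replicate 1 of both groups ZNF626 (0.0540) and ZNF71 (0.0558) were lost. Of the 50-base stretches of their GENCODE v29 transcripts, 17.0% for ZNF514, 9.74% for ZNF66 and 7.88% for ZNF626 also occur in another gene, so their counts are uncertain on how shared reads were assigned. The share was 0 for ZNF75D and ZNF71. Exons of ZNF780B and of ZNF626 overlap another gene on the same strand.

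Members with and without a KRAB domain both rose more often than they fell. A KRAB A box was found in the translated GENCODE v29 coding sequences of 198 members and in none of 114, and 4 had no protein-coding transcript. Of the KRAB genes 69 rose and 21 fell (34.8% and 10.6%, median log2 fold change 0.15). Of those without the box 37 rose and 13 fell (32.5% and 11.4%, median 0.09), and the difference between the classes was not tested. None of the 4 others was called. Without SO-L1 replicate 1 or 3 the KRAB genes called higher numbered 39 and 42. Without replicate 1 of both groups 18 rose and 7 fell, beside 4.45% and 2.5% of all genes, and without replicate 3 of both 46 rose and 12 fell, beside 9.64% and 7.23%.

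**Figure D3:**
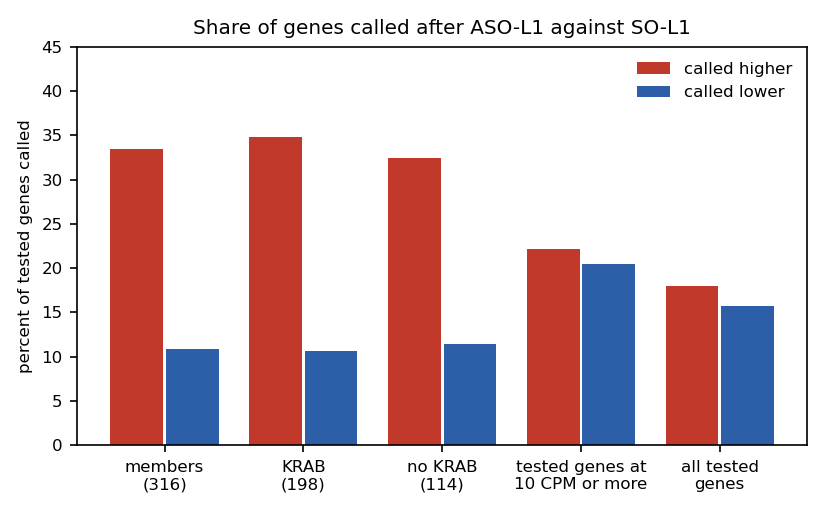
Percent of tested genes called higher (red) and lower (blue) after ASO-L1 for the 316 ZNF genes, their 198 KRAB and 114 other members, the 9593 tested genes at 10 CPM or more and all 16873 tested genes. The ZNF classes stand at 32.5% to 34.8% higher and 10.6% to 11.4% lower, and all tested genes at 18.0% and 15.7%.

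Calls were also counted by number of fingers and by chromosome. KRAB proteins had a median of 12 finger matches and the others 7. The share called higher was 35.4% with 0 to 4 fingers, 35.4% with 5 to 9, 31.2% with 10 to 14 and 35.7% with 15 or more, and the share called lower 16.7%, 9.76%, 10.7% and 8.57%. Of the 128 KRAB genes on chromosome 19, 44 rose and 13 fell (34.4% and 10.2%), and of the 70 elsewhere 25 and 8 (35.7% and 11.4%). Of the 188 members whose exons overlap no other gene in GENCODE v29, 68 rose and 21 fell (36.2% and 11.2%). Of the 128 with such an overlap 38 rose and 13 fell (29.7% and 10.2%). Of the 174 with under 1% of shared 50-base stretches 69 rose and 16 fell (39.7% and 9.20%). By level, 28 of 108 members at 10 to 20 CPM rose and 12 fell (25.9% and 11.1%). At 20 to 40 CPM 44 of 109 rose and 13 fell (40.4% and 11.9%), and above 40 CPM 34 of 99 rose and 9 fell (34.3% and 9.09%). Beside these stood 18.0% and 15.7% of all tested genes, and 22.2% and 20.5% of those at 10 CPM or more. Among the 157 tested ZNF rows under the threshold 30 rose and 14 fell (19.1% and 8.92%), with fewer reads behind each value. These shares are descriptions and were not tested against each other.

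Neighbouring ZNF genes were called in the same direction in some runs and in opposite directions in others. In the RefSeq gene order of GRCh38.p14, 156 members stood in 48 runs of 2 or more members with no other protein-coding gene between them. Of the 18 runs with at least 2 called genes, 12 had calls in 1 direction only and 6 in both. Over all members 106 were called higher and 34 lower, so called genes can often agree in direction without being neighbours. How often called genes that are not neighbours agree was not counted, so these counts do not show that neighbours changed together. The longest run, of 13 genes on chromosome 19, had 2 higher and 3 lower. In it ZNF66 and its neighbour ZNF626 fell, as given above. Both averaged under 10 CPM in ASO-L1 and passed the level threshold through SO-L1. ZNF738 had 52.7, 50.4 and 50.8 CPM in ASO-L1, against 36.7, 32.1 and 38.9 CPM in SO-L1 (0.51 ± 0.09, adjusted p = 0.00280). ZNF43, at the end of the run, had 69.2, 81.7 and 66.5 CPM in ASO-L1, against 51.0, 62.6 and 53.3 CPM in SO-L1 (0.38 ± 0.10, 0.0166), a call lost without SO-L1 replicate 1 (0.0851) or 3 (0.0736). The third decrease was ZNF100 (-0.25, 0.0446), lost without any of 5 single libraries (0.0739 to 0.130), all but ASO-L1 replicate 3. The place of this run among the 6 with calls in both directions rests on ZNF66, ZNF626 and ZNF100.

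Other runs were chosen after their values were seen. Beside them, 33.5% of all members were called higher and 10.8% lower, and 18.0% and 15.7% of all tested genes. In a run of 12 genes on chromosome 19, 4 rose (33.3%, near the share of all members) and none fell. The increases were 0.82 for ZNF671, 0.68 for ZNF256 (adjusted p = 0.00329), 0.37 for ZNF776 (0.00585) and 0.31 for ZNF814 (0.0122). The last was lost without SO-L1 replicate 1 (0.0602) or 3 (0.0623), and 27.4% of its 50-base stretches are shared with another gene. Exons of ZNF776 and ZNF814 overlap other genes. In a run of 6 genes on the same chromosome 5 rose (83.3%) and none fell. ZNF419 had 29.1, 42.1 and 27.8 CPM in ASO-L1, against 14.4, 18.9 and 13.9 CPM in SO-L1 (1.07 ± 0.18, 0.00376), with no overlap between the groups. ZNF773 (0.82 ± 0.14, 0.00277), ZNF550 (0.63 ± 0.14, 0.00821), ZNF416 (0.55 ± 0.12, 0.00655) and ZNF549 (0.49 ± 0.08, 0.00307) rose too, and ZNF772, first in the run, changed by 0.08 ± 0.10 (0.525). ZNF550 was lost without SO-L1 replicate 1 (0.0510). In this run 27.4% of the 50-base stretches of ZNF419 and 19.7% of those of ZNF773 are shared with another gene, and exons of both overlap the gene AC003005.1 on the same strand. Exons of ZNF549 and ZNF550 overlap each other on opposite strands, and ZNF773 averaged under 10 CPM in SO-L1.

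**Figure D4:**
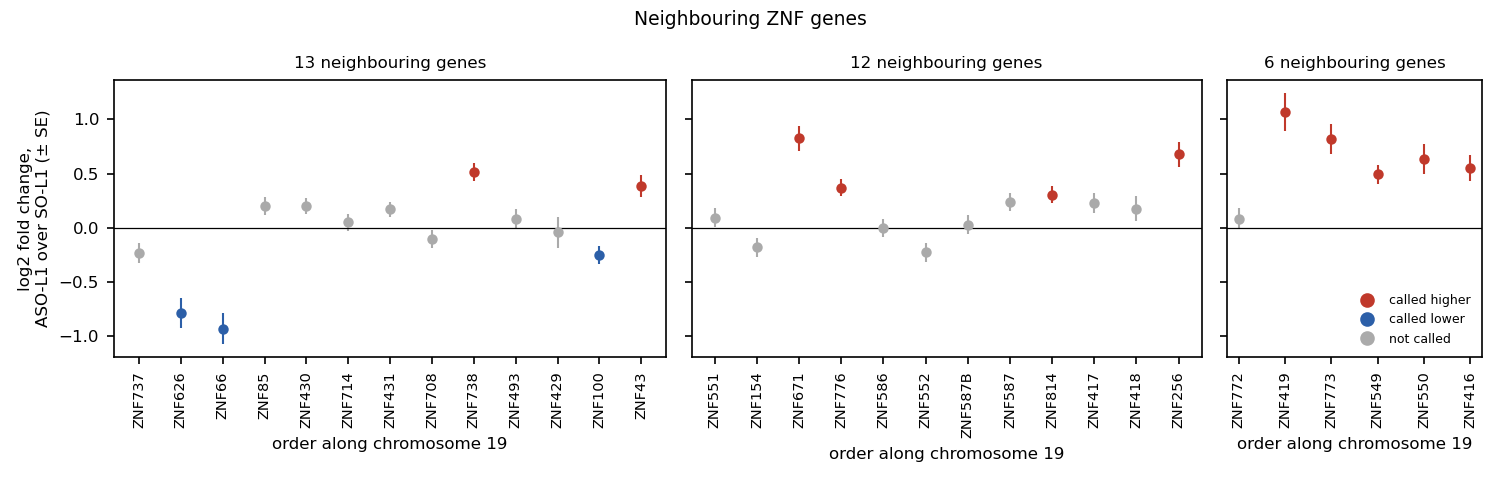
Log2 fold change with standard error (vertical axis) of the ZNF genes in 3 runs of neighbours, in their order along chromosome 19 (horizontal axis), coloured by call. The run of 13 holds 2 increases and 3 decreases, the run of 12 holds 4 increases and the run of 6 holds 5. ZNF66 and ZNF626 passed the level threshold through SO-L1, and ZNF773 through ASO-L1. Over all 316 members 33.5% were called higher and 10.8% lower.

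In the list named promoter-binding activators and general factors most genes rose, by small amounts. Of 8 members of this list 7 rose and none fell, with a median log2 fold change of 0.32. All tested genes stood at 18.0% higher and 15.7% lower, with a median of -0.01. Tested genes at 10 CPM or more stood at 22.2% and 20.5%. The 316 members together stood at 33.5% and 10.8%, with a median of 0.13. This and the other role lists were chosen with earlier results of these data known. The name of this list may not suit each protein, since ZNF263 and ZNF202 carry a KRAB domain, which recruits the corepressor TRIM28. The counts describe these 8 genes and not activators as a class. ZNF143, an activator of small nuclear RNA and many protein-coding promoters, had 41.6, 48.1 and 44.8 CPM in ASO-L1, against 31.8, 32.3 and 32.7 CPM in SO-L1. The groups did not overlap and the SO-L1 libraries were nearly equal (0.47 ± 0.08, adjusted p = 0.00280). Its paralog ZNF76 had 18.7, 19.6 and 18.0 CPM in ASO-L1, against 15.4, 15.6 and 15.4 CPM in SO-L1 (0.28 ± 0.09, 0.0348). ZNF263, a KRAB and SCAN domain factor, had 119, 156 and 122 CPM in ASO-L1, against 85.6, 98.9 and 85.6 CPM in SO-L1 (0.55 ± 0.11, 0.00468). ZNF384 (0.51 ± 0.12, 0.0107), ZNF131 (0.37 ± 0.08, 0.00763), ZNF202 (0.25 ± 0.09, 0.0443) and ZNF24 (0.24 ± 0.07, 0.0291) rose as well. ZNF148, which binds GC-rich promoters, had 22.5, 21.4 and 20.4 CPM in ASO-L1 and 22.5, 23.2 and 27.0 CPM in SO-L1 (-0.18 ± 0.10, 0.173).

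Exons of ZNF143 and ZNF384 overlap an antisense gene each, and those of ZNF263 another gene on the same strand. Only ZNF143, ZNF263 and ZNF131 of the 7 activators and general factors called higher kept the call without any single library. ZNF76 was lost without any 1 of the 6 (0.0553 to 0.114), with no filter (0.107) and by DESeq2 (0.0526), and ZNF384 without SO-L1 replicate 1 (0.0571). ZNF24 was lost without SO-L1 replicate 1 (0.115) or 3 (0.0986). ZNF202 was lost without ASO-L1 replicate 1 (0.0616), 2 (0.0660) or 3 (0.0913), without SO-L1 replicate 1 (0.125) or 3 (0.174), with no filter (0.0987) and by DESeq2 (0.0553). ZNF148 was called lower without replicate 2 of both groups (0.0372).

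Genes for RNA, ribosome and cytoplasmic roles also rose in most cases. Of 8 members 6 rose and 1 fell, with a median of 0.24. All tested genes stood at 18.0% and 15.7%, those at 10 CPM or more at 22.2% and 20.5%, and all 316 members at 33.5% and 10.8%. ZNF593 of the list was not a member. ZNF622, a factor of 60S ribosomal subunit maturation, had 75.3, 98.4 and 75.8 CPM in ASO-L1, against 63.9, 60.7 and 54.6 CPM in SO-L1 (0.48 ± 0.11, adjusted p = 0.00935). ZNF330, a nucleolar protein, had 50.3, 63.5 and 49.2 CPM in ASO-L1, against 44.2, 39.997 and 40.8 CPM in SO-L1 (0.38 ± 0.10, 0.0178). In both, ASO-L1 library 2 was the highest, and the groups did not overlap. ZNF598, a ubiquitin ligase that senses collided ribosomes, changed by 0.29 ± 0.08 (0.0183), ZNF259 (now ZPR1), which binds translation elongation factor eEF1A, by 0.27 ± 0.07 (0.0149) and ZNF326, which links splicing to RNA polymerase II, by 0.21 ± 0.06 (0.0273). ZNF207, a spindle assembly factor and the member with the highest CPM, had 286, 280 and 276 CPM in ASO-L1, against 251, 238 and 251 CPM in SO-L1 (0.19 ± 0.06, 0.0291). ZNF106, an RNA-binding protein, was the decrease, at 136, 122 and 145 CPM in ASO-L1, against 165, 185 and 175 CPM in SO-L1 (-0.38 ± 0.08, 0.00513). ZNF346, which binds double-stranded RNA, had 16.4, 13.7 and 18.5 CPM in ASO-L1 and 19.9, 19.8 and 20.3 CPM in SO-L1 (-0.30 ± 0.11, 0.0653), and was called lower with the replicate block (0.0141), when low counts were not filtered (0.0378) and when ASO-L1 replicate 3 was left out (0.0248).

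Calls of ZNF622 and ZNF106 held without any single library. ZNF598 was lost without SO-L1 replicate 1 (0.0719) or 3 (0.0755), ZNF259 without the same (0.0522 and 0.0657), and ZNF330 without SO-L1 replicate 2 (0.0550) or 3 (0.0725). ZNF326 was lost without ASO-L1 replicate 1 (0.0654) or 3 (0.0623), SO-L1 replicate 1 (0.0620) or 3 (0.127), and with no filter (0.0896). ZNF207 was lost without ASO-L1 replicate 1 (0.0938) or 3 (0.0615), without SO-L1 replicate 1 (0.0620), 2 (0.0853) or 3 (0.0848), and with no filter (0.0963). For ZNF207 20.7% of the 50-base stretches are shared with another gene, and its exons overlap other genes on the same strand. Exons of ZNF598 and ZNF259 overlap an antisense gene each.

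Of 17 members in chromatin complexes and corepressors 2 rose and 3 fell, with a median of -0.05. These shares were 11.8% and 17.6%, beside 18.0% and 15.7% of all tested genes and 22.2% and 20.5% of those at 10 CPM or more. All 316 members stood at 33.5% and 10.8%, and the difference from them was not tested. ZNF281, which represses Nanog in mouse embryonic stem cells, had 99.7, 115 and 102 CPM in ASO-L1, against 78.0, 85.6 and 81.9 CPM in SO-L1 (0.37 ± 0.07, adjusted p = 0.00534). ZNF335, a subunit of histone H3K4 methyltransferase complexes, had 71.0, 87.2 and 66.3 CPM in ASO-L1, against 57.4, 60.8 and 58.5 CPM in SO-L1 (0.34 ± 0.10, 0.0218). ZNF592 fell, at 55.0, 48.5 and 53.4 CPM in ASO-L1, against 62.6, 74.5 and 67.4 CPM in SO-L1 (-0.38 ± 0.08, 0.00789). The proteins of ZNF592, ZNF532 and ZNF687 form a complex with ZMYND8. ZNF532, at 229, 217 and 236 CPM in ASO-L1 and 211, 235 and 228 CPM in SO-L1, and ZNF687 changed by 0.02 ± 0.06 (0.860) and -0.01 ± 0.07 (0.943). ZNF512B, a partner of the NuRD complex, fell by 0.34 on the log2 scale, at 93.9, 86.2 and 93.9 CPM in ASO-L1, against 117, 116 and 115 CPM in SO-L1 (-0.34 ± 0.06, 0.00387). ZNF618, which binds UHRF2, had -0.38 ± 0.11 (0.0205).

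ZNF638, ZNF274, ZNF445 and ZNF644, 4 members with roles in silencing, were not called. ZNF638, also known as NP220, which works with the HUSH complex on unintegrated viral DNA, had 151, 142 and 150 CPM in ASO-L1 and 130, 113 and 138 CPM in SO-L1 (0.22 ± 0.08, adjusted p = 0.0533). ZNF274, which brings SETDB1 to the ends of zinc finger genes, had 40.6, 48.8 and 40.3 CPM in ASO-L1 and 36.3, 39.9 and 35.6 CPM in SO-L1 (0.22 ± 0.09, 0.100). In both the ASO-L1 libraries lay above the SO-L1 libraries, and both were called higher with the replicate block (0.00713 and 0.0224) and without replicate 2 of both groups (0.00705 and 0.0346). ZNF638 was also called without ASO-L1 replicate 2 (0.0264) and with a filter of 1 CPM in 3 libraries (0.0427). ZNF445, a regulator of imprinted regions, changed by -0.05 ± 0.08 (0.660), and ZNF644, a partner of the G9a and GLP methyltransferases, by 0.09 ± 0.06 (0.228). ZNF217, a CoREST-associated factor, had 208, 199 and 210 CPM in ASO-L1 and 219, 226 and 241 CPM in SO-L1 (-0.15 ± 0.06, 0.0764). It was called lower with the block (0.0367) and without replicate 2 of both groups (0.0236), and ZNF827, a NuRD partner (-0.21 ± 0.08, 0.0777), with the block (0.0262). ZNF711, ZNF609 and ZNF219 changed by 0.09, -0.09 and -0.05, with adjusted p-values of 0.473, 0.398 and 0.710. Of the 5 calls in this list, ZNF335 was lost without SO-L1 replicate 1 (0.0906) or 3 (0.0779) and ZNF618 without the same (0.0503 and 0.0924). Exons of ZNF512B overlap an antisense gene.

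**Figure D5:**
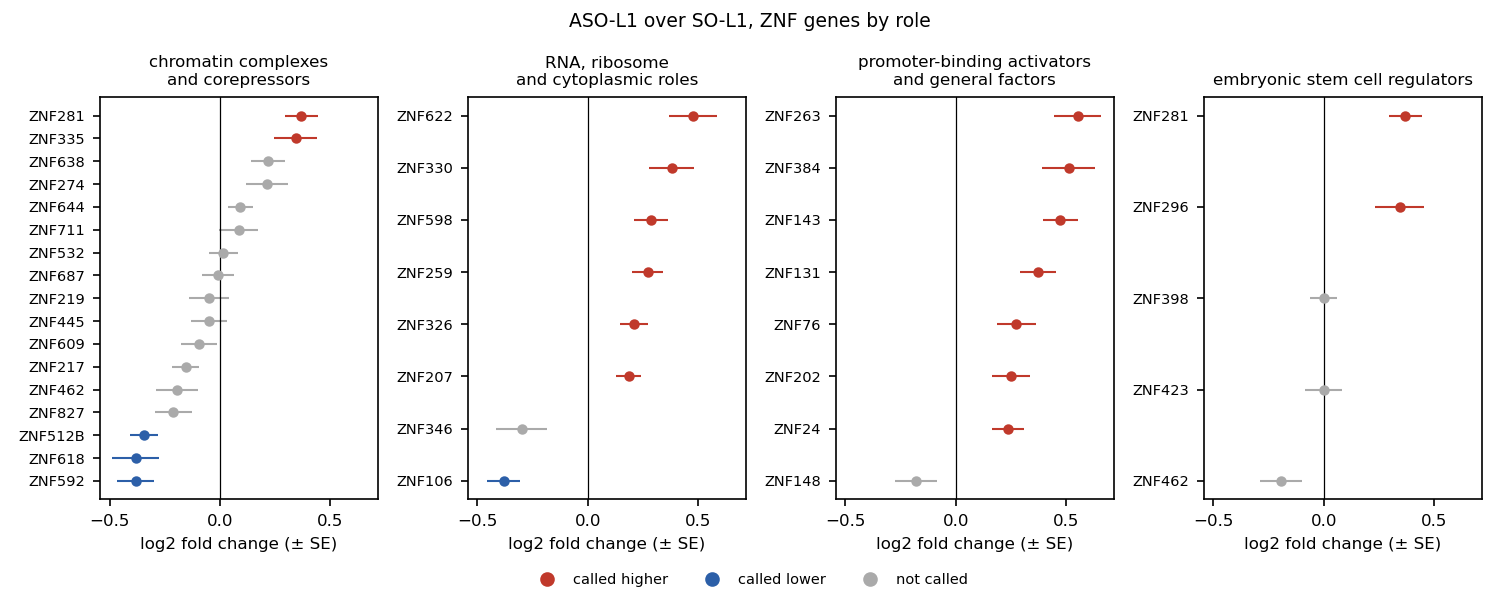
Log2 fold change of ASO-L1 over SO-L1 with standard error (horizontal axis) for the members of 4 role lists (vertical axis), coloured by call. In the list named promoter-binding activators and general factors 7 of 8 lie above 0 and are called, and of the chromatin genes 12 of 17 are not called. ZNF281 and ZNF462 stand in 2 lists.

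Among the embryonic stem cell regulators 2 of 5 members rose and none fell, with a median of 0.00, while ZNF322 and ZNF521 of the list were not members. All tested genes stood at 18.0% and 15.7%, those at 10 CPM or more at 22.2% and 20.5%, and all 316 members at 33.5% and 10.8%. ZNF281 was described above. ZNF296, which works with Klf4 in mouse cells, had 47.8, 61.8 and 44.8 CPM in ASO-L1, against 39.4, 40.1 and 42.0 CPM in SO-L1 (0.34 ± 0.11, adjusted p = 0.0385), with ASO-L1 library 2 the highest. Its call was lost without ASO-L1 replicate 2 (0.0531) or without SO-L1 replicate 1 (0.133), 2 (0.0891) or 3 (0.0868). Its exons overlap another gene on the same strand. ZNF398, a factor for pluripotency genes and epithelial character in human embryonic stem cells, had 117, 109 and 111 CPM in ASO-L1 and 115, 113 and 110 CPM in SO-L1 (0.00 ± 0.06, 0.9997). ZNF423, a cofactor of BMP signalling, had 56.5, 51.5 and 60.4 CPM in ASO-L1 and 57.3, 52.2 and 59.0 CPM in SO-L1 (0.00 ± 0.08, 0.998). ZNF462, a multi-finger chromatin regulator, had 178, 146 and 179 CPM in ASO-L1 and 171, 200 and 206 CPM in SO-L1 (-0.19 ± 0.10, 0.142), and was called lower with the replicate block (0.0464) and with no filter (0.0445).

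Of 18 partner genes of the KRAB pathway outside the ZNF family 1 rose and 2 fell, which is 5.56% and 11.1%. All tested genes stood at 18.0% and 15.7%, and those at 10 CPM or more at 22.2% and 20.5%. TRIM28 averaged 1598 CPM in ASO-L1 and 1350 CPM in SO-L1 (0.24 ± 0.07, adjusted p = 0.0217), CBX5, the gene of HP1 alpha, 273 and 350 CPM (-0.36 ± 0.07, 0.00526), and FAM208A (TASOR of the HUSH complex) 48.2 and 61.1 CPM (-0.34 ± 0.08, 0.00796). The call of TRIM28 was lost without SO-L1 replicate 2 (0.0653) or 3 (0.0699). SETDB1 averaged 34.5 CPM in ASO-L1 and 37.96 CPM in SO-L1 (-0.14 ± 0.08, 0.190).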

How the data were processed

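Poly(A) RNA of H9 cells was sequenced from 3 ASO-L1 and 3 SO-L1 libraries made with a directional kit, per the labels. The authors deposited raw read counts per gene symbol, with duplicates removed per the file name. Per the submitters' processing notes, the tools were TopHat2 2.0.13, Trim Galore 0.4.0, Subread 1.5.0 and featureCounts, with hg19. The sources used here do not give the annotation, the strand setting or how shared reads were handled. The authors' deposited table holds a log2 fold change and p-values per gene, per the file headers, from a model that is not stated. Their batch-corrected values were not used.

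Groups came from the sample titles. Counts were tested with edgeR 4.0.16 (quasi-likelihood, robust, TMM, no block) after filterByExpr (minimum count 10, minimum total 15), two-sided. DESeq2 1.42.0 was an alternative. The SE was taken as the size of the log2 fold change over the root of F. With 3 libraries against 3 the smallest two-sided exact permutation p is 0.1, and that test was not used. Deviations of same-numbered libraries correlated at 0.14, 0.44 and 0.28 over genes, all above 0.1. Libraries of unlike number also passed 0.1: ASO-L1 3 with SO-L1 1 gave 0.19 and ASO-L1 1 with SO-L1 3 gave 0.23. Libraries 1 and 3 did not each match their own number best, so these values cannot settle whether the numbers mark pairs. The main fit had no block, and blocked values are given where they change a call.

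No RefSeq protein table was used here, so the KRAB class was set from GENCODE v29 coding sequences, with a BLOSUM62 score of at least 50 against a consensus of 40 residues (the nearest members scored 37 and 58). Fingers are matches to 2 cysteines and 2 histidines spaced by 2 to 4, 12 and 3 to 5 residues. Levels of different genes were compared only for the threshold, the counts by level and the highest CPM. CPM does not correct for length, so these do not rank genes by transcript number. Named genes were the 8 called members with the smallest p and no overlap and the 4 largest folds in each direction, the 3 highest in CPM, those next to the threshold, the members of 4 role lists and up to 4 called genes of the longest run. Others were named after their values were seen. The members and lists were chosen with earlier results of these data known.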

Additional observations from a re-analysis of the deposited data

How the results depend on the processing

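Leaving out 1 library at a time gave 57 to 105 members called higher, 24 to 34 called lower, a median log2 fold change of 0.09 to 0.16, and 39 to 71 KRAB genes higher and 14 to 20 lower. That median was lowest, at 0.088, when ASO-L1 replicate 2 was left out. Without replicate 1 of both groups 26 members were higher and 8 lower (18 and 7 KRAB genes), and without replicate 3 of both 65 and 20, with 12 KRAB genes lower. These fits have fewer libraries. With the replicate block 133 were higher and 51 lower, which include all 106 and 34 called without it, and the block ended no call. DESeq2's test called 103 and 32, of which 100 and 32 were the same genes, its size factors in edgeR 107 and 35, no filter 100 and 37, and 1 CPM in 3 libraries 110 and 34. No called member changed direction in any of these settings. The shares called at other level thresholds stayed within 1.5 times of those at 10 CPM. The KRAB class from RefSeq proteins was not run. The counts over members at 10 CPM or more in both groups, with under 1% of shared stretches or with no overlapping gene were added after the data were seen.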
